A study of Mus musculus with 12 samples.

Results

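The mouse apolipoprotein L (Apol) genes lie in a cluster on chromosome 15, and 8 of them were followed here, Apol6, Apol7a, Apol7c, Apol8, Apol9a, Apol9b, Apol10b and Apol11b. They were chosen by gene name from a raw count table of 56350 identifiers, with earlier results of the same libraries known, so their values are descriptions and support nothing beyond themselves. Of the 8, only Apol8 and Apol11b gave more than 26 counts in a library. Both were highest in marrow of mice given 2 drugs together and lowest in marrow of mice given vehicle, by 3.9-fold for Apol8 and 38.7-fold for Apol11b. Apol7a had no count in any library, and the remaining 5 members together gave at most 2.37 CPM (counts scaled to the library size) in a library.

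The counts come from RNA sequencing of bone marrow cells of 12 Shp2E76K/+;LysM-Cre+ mice in the C57BL/6 background. The mice were males and females aged 12 to 14 weeks. All 12 mice, vehicle controls included, carry the activating allele of Shp2, a phosphatase upstream of Ras, and the LysM-Cre that switches it on in myeloid cells. The strain is used to model JMML, a myelomonocytic leukaemia of young children, and no mouse without the allele was sequenced. Each group held 3 separate mice. The combination group received the MEK inhibitor PD-901 (PD0325901) and the DNA hypomethylating agent 5-azacitidine, the 5-azacitidine group and the PD-901 group received 1 drug each, and the vehicle group received neither. Treatment lasted 4 weeks. PD-901 was given orally in 20 doses of 5 mg/kg, and 5-azacitidine was injected into the peritoneum in 5 doses of 5 mg/kg. The question behind the series is how the 2 drugs act together.

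Apolipoprotein L proteins share a name with the apolipoproteins of plasma particles, but most of them lack a secretion signal and stay inside the cell, where they associate with membranes and lipids. The best known member of the family is human APOL1, a secreted protein of serum that kills trypanosomes. Mouse Apol9a and Apol9b are induced by interferon, Apol7c is known from dendritic cells, and human APOL6 has been linked to cell death. The mouse genes arose by local duplication, so several are near copies of each other.

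The sequences just upstream of the start sites are shown because Apol11b and Apol11a, whose counts differ widely, have identical upstream sequences. The 4 printed below are not copies of each other and share no unbroken stretch longer than 10 bases. All are the 250 bases before the start, in the direction of transcription, from RefSeq (GRCm38.p6). Of the 8 members, 7 were found there. Capitals mark matches, on either strand, to the letters of an interferon-stimulated response element (ISRE, searched as GAAA, then 2 bases of any kind, then GAAA) or to TTCNNNGAA, those of a gamma-activated site.
Apol11b, chr15:77643287-77643536, minus strand: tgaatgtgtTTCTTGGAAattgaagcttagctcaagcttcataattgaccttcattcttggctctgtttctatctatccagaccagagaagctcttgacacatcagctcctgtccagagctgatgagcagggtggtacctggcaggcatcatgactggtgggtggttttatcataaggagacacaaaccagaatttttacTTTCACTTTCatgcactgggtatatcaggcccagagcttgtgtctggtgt
Apol8, chr15:77757011-77757260, minus strand: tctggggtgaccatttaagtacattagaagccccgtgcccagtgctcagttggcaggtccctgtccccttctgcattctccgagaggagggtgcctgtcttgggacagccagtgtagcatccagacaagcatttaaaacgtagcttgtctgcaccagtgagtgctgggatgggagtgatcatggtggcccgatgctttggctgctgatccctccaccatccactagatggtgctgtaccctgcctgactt
Apol9b, chr15:77728822-77729071, plus strand: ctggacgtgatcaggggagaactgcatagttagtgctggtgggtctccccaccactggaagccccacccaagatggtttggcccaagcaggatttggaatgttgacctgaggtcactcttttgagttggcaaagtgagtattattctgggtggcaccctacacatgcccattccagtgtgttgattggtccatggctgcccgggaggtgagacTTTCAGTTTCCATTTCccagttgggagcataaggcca
Apol7c, chr15:77533316-77533565, minus strand: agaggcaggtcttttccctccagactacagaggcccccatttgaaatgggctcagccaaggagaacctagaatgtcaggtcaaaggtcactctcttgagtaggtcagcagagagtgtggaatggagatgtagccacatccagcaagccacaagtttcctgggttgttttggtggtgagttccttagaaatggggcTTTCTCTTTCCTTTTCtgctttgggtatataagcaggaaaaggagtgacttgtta
The sequence of Apol11b was identical, with 0 differences, to the 250 bases upstream of its neighbour Apol11a at chr15:77508019-77508268 on the plus strand. It held 1 ISRE match that begins 50 bases before the start and 1 TTCNNNGAA that begins 241 bases before it, and no CpG, the dinucleotide that DNA methylation acts on. Apol8 held neither of these motifs and 4 CpG. Apol9b and Apol7c each held 2 overlapping ISRE matches, and so did Apol9a, whose upstream sequence shared an unbroken stretch of up to 231 bases with that of Apol9b. Apol7a and Apol10b held no match. AGATAA was in the upstream sequence of none of the 7. It is 1 of the strings of letters that GATA factors bind and the only one searched. The Apol11b sequence does hold others, ttatca and ctatct, which read TGATAA and AGATAG on the opposite strand. The lack of AGATAA in the 7 sequences is thus no lack of GATA strings. Over 32851 mouse promoter windows of the same length, 2.98% held the ISRE letters, 7.02% held TTCNNNGAA and 9.99% held AGATAA, and 44.4% had 4 or fewer CpG. A match is a string of letters and no sign of binding.

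The libraries held 15356919 to 27148190 counts, and 17475 genes passed a filter on low counts and were tested. CPM values are scaled by the total count and for library composition. Dusp6, a phosphatase gene switched on by ERK, served as a check of the MEK inhibitor. It had 21.2, 27.9 and 45.6 CPM in combination mice, 116, 233 and 164 CPM in 5-azacitidine mice, 225, 180 and 211 CPM in PD-901 mice and 209, 173 and 218 CPM in vehicle mice. Dusp6 was lower in every combination library than in any other library, while its levels in PD-901 mice overlapped those in vehicle mice (log2 change 0.04 ± 0.26). Dusp6 thus showed no lower level in the PD-901 group, and the comparisons of that group rest on its label alone. Lyz2, the lysozyme gene of the LysM locus and a myeloid marker, ran from 44.9 to 1151 CPM in combination mice and from 147 to 3228 CPM in vehicle mice, so the mice of a group differed widely in it. The summed CPM of 12 mature neutrophil genes spread less, from 25540 to 30140 in combination mice and from 31840 to 65460 in vehicle mice. The reason for the spread in Lyz2 was not tested.

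Apol8 (chr15:77747798-77757003, minus strand, mm10) was detected in every library. It had 706, 387 and 1055 counts in combination mice, 339, 271 and 278 counts in 5-azacitidine mice, 482, 293 and 482 counts in PD-901 mice and 150, 211 and 150 counts in vehicle mice. In CPM these were 35.9, 19.7 and 41.6 in combination mice, 22.4, 17.0 and 12.9 in 5-azacitidine mice, 19.1, 17.9 and 17.5 in PD-901 mice and 8.25, 10.4 and 6.33 in vehicle mice. Every library of each treated group was above every vehicle library, and the PD-901 libraries lay within a narrow band. The combination mean was 32.4 ± 11.4 CPM, the 5-azacitidine mean 17.4 ± 4.75 CPM, the PD-901 mean 18.2 ± 0.835 CPM and the vehicle mean 8.32 ± 2.04 CPM (SD, n = 3 each). The lowest combination library lay below the highest 5-azacitidine library, so those groups overlapped.

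Apol11b (chr15:77633946-77643286, minus strand) was close to silent in vehicle mice. It had 909, 422 and 615 counts in combination mice, 45, 68 and 36 counts in 5-azacitidine mice, 233, 100 and 70 counts in PD-901 mice and 22, 24 and 1 counts in vehicle mice. The third vehicle mouse stood apart from the other vehicle mice with its single count. In CPM the combination mice had 46.2, 21.5 and 24.3, the 5-azacitidine mice 2.97, 4.26 and 1.67, the PD-901 mice 9.25, 6.10 and 2.55 and the vehicle mice 1.21, 1.18 and 0.0422. The combination libraries lay above all other libraries, the levels in 5-azacitidine and PD-901 mice overlapped each other, and both lay above vehicle. The means were 30.7 ± 13.6 CPM in combination mice, 2.97 ± 1.3 CPM in 5-azacitidine mice, 5.96 ± 3.35 CPM in PD-901 mice and 0.812 ± 0.667 CPM in vehicle mice (SD, n = 3 each).

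**Figure D1:**
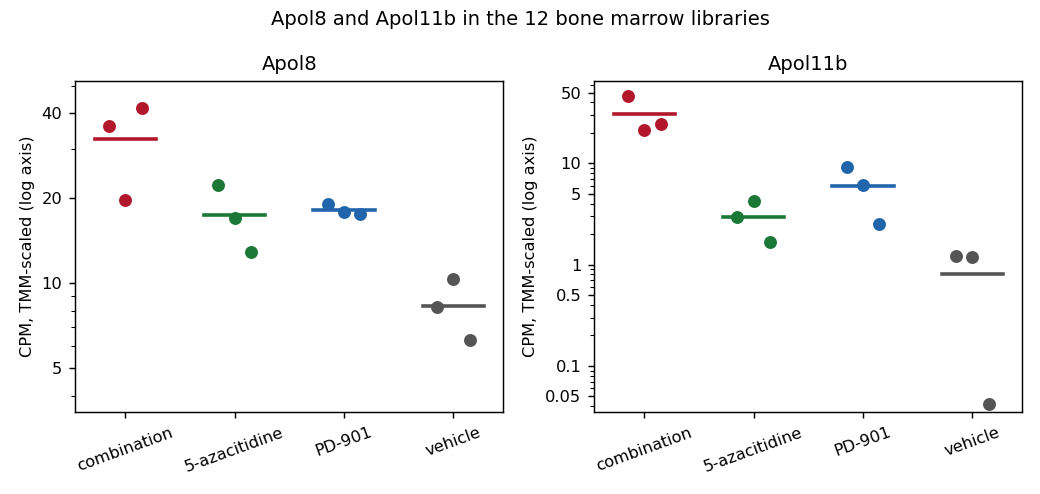
Levels of Apol8 and Apol11b in CPM (log axes) in the 4 groups, with 1 point per mouse and a bar at the group mean. Apol11b sits between 21.5 and 46.2 CPM in the combination mice and at or below 9.25 CPM everywhere else, while for Apol8 the combination and 5-azacitidine points overlap.

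Because the genes differ in length, their levels were also compared per kilobase of exons. On that scale Apol11b averaged 12.5 CPM per kb and Apol8 10.9 CPM per kb in combination mice, against 0.330 CPM per kb for Apol11b and 2.81 CPM per kb for Apol8 in vehicle mice. The ratio of Apol11b counts to Apol8 counts was 1.29, 1.09 and 0.583 in combination mice, 0.133, 0.251 and 0.130 in 5-azacitidine mice, 0.483, 0.341 and 0.145 in PD-901 mice and 0.147, 0.114 and 0.00667 in vehicle mice. The ratio was higher in every combination library than in any other library. Apol11b made up 55.7%, 52.0% and 36.1% of the counts of the 8 members in combination mice, against 12.3%, 9.72% and 0.538% in vehicle mice.

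In the fit of all 17475 genes, 2 of the 3 members tested rose in the combination against vehicle, where 5.78% of all genes were called higher and 7.97% lower at an adjusted p of 0.05. Apol8 rose by 1.96 ± 0.28 on the log2 scale (SE, 95% interval 1.37 to 2.56, edgeR adjusted p = 0.0029). Apol11b rose by 5.27 ± 0.73 (95% interval 3.69 to 6.86, edgeR adjusted p = 0.0029), by 4.67 when the third vehicle mouse was left out, and by 8.98 without the 4 libraries lowest in Lyz2, which leaves 1 combination and 1 vehicle library. Neither group of libraries overlapped with vehicle for these genes, which held for 16.1% of all genes on the higher side. The median change of all genes was 0.01. A joint test of any difference among the 4 groups called the same 2 members, with an edgeR adjusted p of 0.0102 for Apol8 and 0.0084 for Apol11b, where 6.96% of all genes were called. Without the first combination mouse the joint test called 0 members.

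Against vehicle, both genes were also higher with each single agent, by smaller values, and no member passed the threshold. With PD-901, Apol8 was higher by 1.13 ± 0.28 (95% interval 0.54 to 1.72) and Apol11b by 2.91 ± 0.70 (95% interval 1.40 to 4.42) on the log2 scale, both with an edgeR adjusted p of 0.96. Of all genes, 0% were called higher in that comparison, and 853 genes, these 2 members among them, had an unadjusted p under 0.05. DESeq2 also called 0 members there. With 5-azacitidine, Apol8 was higher by 1.06 ± 0.28 (95% interval 0.47 to 1.65, edgeR adjusted p = 0.131) and Apol11b by 1.89 ± 0.71 (95% interval 0.36 to 3.43, edgeR adjusted p = 0.237), where 0.00572% of all genes were called higher. Here 2673 genes, again with these 2 members, had an unadjusted p under 0.05. DESeq2 called Apol8 (adjusted p = 0.0195), among 613 of all genes called there. For both genes the 3 treated libraries lay above the 3 vehicle libraries in each of these comparisons, as did 6.83% of all genes with PD-901 and 10.8% with 5-azacitidine. All 3 comparisons share the same vehicle libraries.

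Set against the single agents, Apol11b was again higher in the combination. It was 5.15-fold higher than in PD-901 mice (log2 change 2.36 ± 0.61, edgeR adjusted p = 0.0352) and 10.4-fold higher than in 5-azacitidine mice (log2 change 3.38 ± 0.65, edgeR adjusted p = 0.0326). Of all genes, 1.69% were called higher in the combination against PD-901 and 0.252% against 5-azacitidine. Apol8 was higher by 0.84 ± 0.27 than in PD-901 mice (95% interval 0.26 to 1.41, edgeR adjusted p = 0.077) and by 0.90 ± 0.27 than in 5-azacitidine mice (95% interval 0.32 to 1.48, edgeR adjusted p = 0.109), and neither difference passed the threshold. Both Apol11b calls depended on single mice, and the number of all genes called, in either direction, moved with the mice too. Against PD-901 mice it was 1191 in the main fit and 386 to 778 in the leave-out fits that lost Apol11b. Against 5-azacitidine mice it was 231 in the main fit. In the leave-out fits that lost Apol11b it was 0 to 101, or 528 without the first 5-azacitidine mouse. Over 22 settings the Apol11b log2 change ran from 1.94 to 2.86 and from 2.93 to 3.77 in these 2 comparisons. The call against PD-901 mice was lost without the first (edgeR adjusted p = 0.176) or the third combination mouse (0.0885) and without any of the 3 PD-901 mice (0.0767, 0.113 and 0.119). The call against 5-azacitidine mice was lost without the first (0.147) or the third combination mouse (0.107), without any of the 3 5-azacitidine mice (0.0504, 0.0882 and 0.145), without the second PD-901 mouse (0.0564) and without the second vehicle mouse (0.0504). For Apol8 both differences passed without the second combination mouse (edgeR adjusted p = 0.0117 and 0.0191), where 1563 and 735 of all genes were called. All 3 tested members were higher in every combination library than in every PD-901 library, as were 12.7% of all genes. For Apol7c this rested on 2 counts in the second combination mouse against 1 count in the second PD-901 mouse. Against 5-azacitidine only Apol11b was higher in every combination library, as were 9.1% of all genes.

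The interaction of PD-901 and 5-azacitidine asks whether the combination departs from the sum of both single changes on the log2 scale. For Apol8 it was -0.23 ± 0.38 (95% interval -1.04 to 0.59, edgeR adjusted p = 0.886) and for Apol11b 0.47 ± 0.94 (95% interval -1.56 to 2.5, edgeR adjusted p = 0.906). The call rate over all genes was 0%, with 1871 genes and 0 of the 3 members at an unadjusted p under 0.05. DESeq2 also called 0 members. The intervals leave room for a departure from additivity in either direction, and for Apol11b they span several-fold changes.

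**Figure D2:**
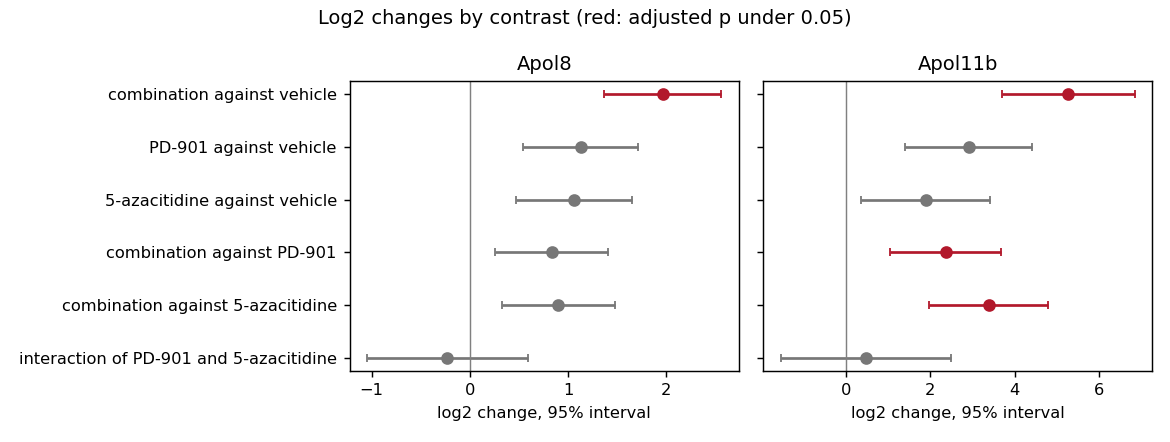
Log2 changes of Apol8 (left) and Apol11b (right, wider axis) in each comparison, the first-named group over the second, with bars for the 95% interval and red for an adjusted p under 0.05. Both genes lie above 0 in the 5 pairwise comparisons, Apol11b with larger values, and both intervals of the interaction cross 0.

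The other 6 members were at the edge of detection. A count of 0 in 1 library allows up to 0.109 to 0.198 CPM, depending on its depth, and such limits cover counting error only. Apol7a (chr15:77388219-77399110, minus strand) had 0 counts in all 12 libraries. Apol6 (chr15:77044729-77057106, plus strand) had 5 counts in the third PD-901 library and 0 in the other 11 libraries. It overlaps Mb, the myoglobin gene on the opposite strand, over 5942 bases, and reads of such a pair cannot be told apart where counting ignores strand.

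The interferon-inducible Apol9a (chr15:77403789-77411135, minus strand) had 0, 0 and 0 counts in combination mice, 7, 0 and 2 counts in 5-azacitidine mice, 7, 4 and 7 counts in PD-901 mice and 7, 1 and 9 counts in vehicle mice. With 3 counts over the group as the limit for the combination, the pooled Apol9a level of vehicle mice was 5.89 times that limit. That of PD-901 mice was 5.61 times it. These ratios leave out the counting error of the other group and the spread between mice, and 1 vehicle mouse had a single count. No such ratio is given against 5-azacitidine mice, where the first mouse held 7 of the 9 counts and the second had 0, like the combination mice. Apol9a did not pass the filter. In a fit without the filter its edgeR adjusted p for the combination against vehicle was 0.166. Its near copy Apol9b (chr15:77729039-77736382, plus strand) had 0, 0 and 25 counts in combination mice, 0, 0 and 1 in 5-azacitidine mice, 0, 9 and 0 in PD-901 mice and 0, 8 and 6 in vehicle mice. The third combination mouse held all 25 of that group's counts, and the groups overlapped for Apol9b. When the pair was summed, the counts were 0, 0 and 25 in combination mice, 7, 0 and 3 in 5-azacitidine mice, 7, 13 and 7 in PD-901 mice and 7, 9 and 15 in vehicle mice. The summed pair passed the filter. In that edgeR fit 4 members were tested in the combination against vehicle, and 2 had an unadjusted p under 0.05, the same number as without the sum. The sources used here do not state how reads were shared out between the 2 copies, and 52.3% of the 50-base windows of Apol9b transcripts occur in Apol9a as well.

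Apol7c (chr15:77524852-77533316, minus strand), the member known from dendritic cells, had 18, 2 and 5 counts in combination mice, 26, 5 and 0 counts in 5-azacitidine mice, 0, 1 and 0 counts in PD-901 mice and 0, 3 and 13 counts in vehicle mice. The spread within groups was as wide as that between them. Apol7c passed the filter, and its change in the combination against vehicle was 0.75 ± 1.6 on the log2 scale (edgeR adjusted p = 0.836). Apol10b (chr15:77583819-77596125, minus strand) had 0, 0 and 5 counts in combination mice, 3, 3 and 2 in 5-azacitidine mice, 1, 1 and 2 in PD-901 mice and 0, 0 and 7 in vehicle mice. Its combination libraries overlapped with those of every other group. The 5 members that were not tested are thus neither shown to change nor shown to stay as they were.

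**Figure D3:**
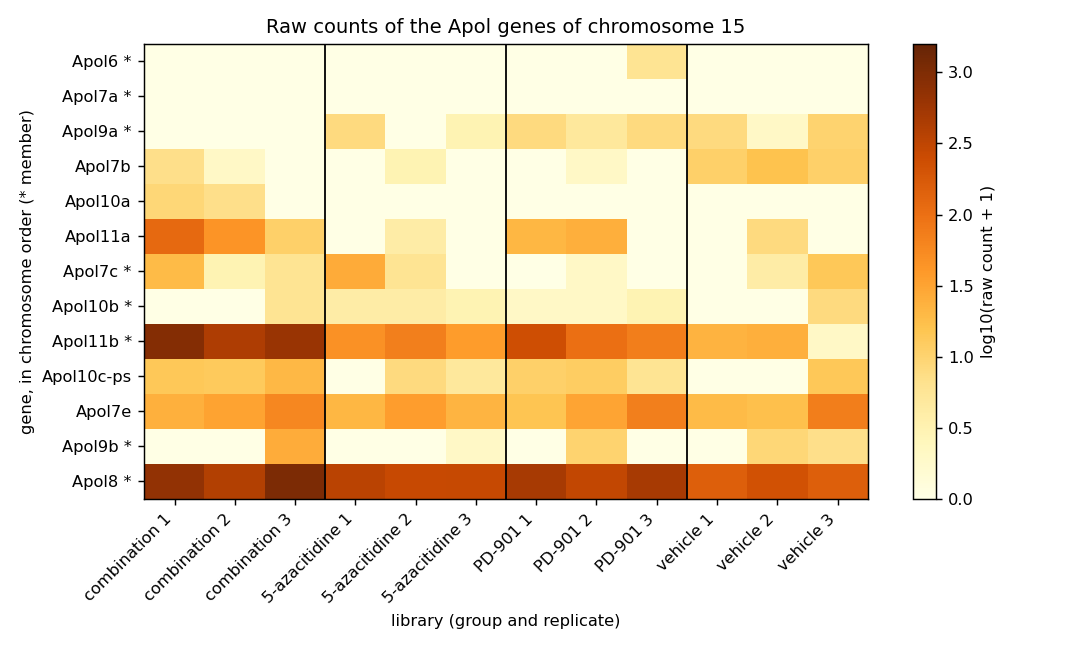
Raw counts of the 13 Apol genes of chromosome 15 in the 12 libraries (members marked with a star), on a log10(count + 1) colour scale with groups side by side from combination to vehicle. Of the members, Apol8 and Apol11b have the dark rows, Apol7a is at 0 throughout, and the other 5 never pass 26 counts.

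On chromosome 15 the table places 13 Apol genes within 712.3 kb, 8 of them members. Of the 36 genes of the table in or next to the cluster 8 were tested. The non-member Apol11a, whose upstream sequence is the same as that of Apol11b, had 115, 43 and 10 counts in combination mice, 0, 3 and 0 in 5-azacitidine mice, 20, 24 and 0 in PD-901 mice and 0, 7 and 0 in vehicle mice. Its log2 change in the combination against vehicle was 4.55 ± 1.63 (edgeR adjusted p = 0.0793). Its level averaged 1.51 CPM per kb in combination mice, and the third combination library, at 0.394 CPM, lay below 2 PD-901 libraries, at 0.794 and 1.46 CPM. Of the 50-base windows of Apol11b transcripts, 10.9% occur in Apol11a.

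The non-member Apol7e gave 1.67 ± 0.544 CPM in combination mice and 1.58 ± 1.20 CPM in vehicle mice (SD, n = 3 each), a log2 change of 0.08 ± 0.64. Apol10a had 8, 6 and 0 counts in combination mice and 0 counts in every other library. Apol7b had 6, 1 and 0 counts in combination mice, 0, 2 and 0 in 5-azacitidine mice, 0, 1 and 0 in PD-901 mice and 10, 15 and 10 counts in vehicle mice. Apol7b and Apol7e share most of their transcript windows with each other, 72.4% and 74.1% of which occur in other genes, so their counts are uncertain. The pseudogene Apol10c-ps changed by 1.81 ± 1.46. Rbfox2, a splicing factor gene that lies between Apol6 and Apol7a, changed by 1.21 ± 0.58 on the log2 scale (edgeR adjusted p = 0.188). Myh9, the non-muscle myosin heavy chain gene next to Apol8, fell by 0.75 ± 0.19 (edgeR adjusted p = 0.0201), opposite in sign to Apol8. Of the 8 tested genes along the cluster, 2 were thus called higher, Apol8 and Apol11b, and 1 was called lower, Myh9.

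**Figure D4:**
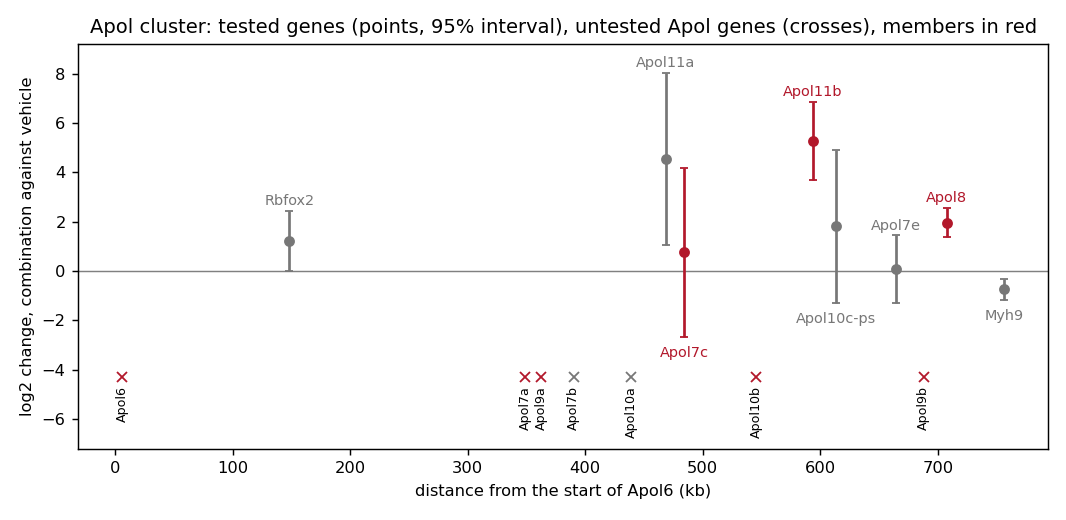
Log2 change in the combination against vehicle along the cluster, by distance from the start of Apol6 in kb, with 95% intervals for the 8 tested genes and crosses at a fixed height for Apol genes with too few counts. Members are red and others grey. Apol11b at 5.27 and Apol8 at 1.96 stand above 0, and Myh9 beyond the end of the cluster lies below it.

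Markers of several cell types moved in the same comparison, among them those of red cell precursors. All 18 genes of an erythroid list, such as Tfrc, the transferrin receptor gene, and the globin gene Hbb-bs, rose in the combination against vehicle, with a median log2 change of 1.32. The summed CPM of the list ranged over 2808 to 8758 in combination mice, 3623 to 3855 in 5-azacitidine mice, 3587 to 4820 in PD-901 mice and 1624 to 2638 in vehicle mice, and none of its markers was at 0. Of 7 primary granule genes of immature neutrophils 5 also rose, with a median of 0.72 and a summed level of 6491 to 9679 CPM in combination mice, against 5122 to 5770 CPM in vehicle mice. Markers of other cell types fell, 6 of 12 for mature neutrophils (median -1.20), 6 of 10 for monocytes (median -0.91), 3 of 10 for macrophages (median -1.22) and 9 of 12 for B cells (median -1.50). The part of these cell types in the change of Apol8 and Apol11b was not tested. In bulk marrow, more cells of a type and more RNA per cell cannot be told apart. Per 1000 CPM of erythroid markers, Apol8 came to 5.22, 7.03 and 4.75 CPM in combination mice, 6.17, 4.41 and 3.37 CPM in 5-azacitidine mice, 3.97, 3.88 and 4.89 CPM in PD-901 mice and 3.54, 3.94 and 3.9 CPM in vehicle mice. On this scale every combination library still lay above every vehicle library for Apol8, while the combination overlapped with both single agents. Apol11b came to 6.72, 7.66 and 2.77 CPM in combination mice, 0.819, 1.11 and 0.437 CPM in 5-azacitidine mice, 1.92, 1.32 and 0.710 CPM in PD-901 mice and 0.520, 0.449 and 0.026 CPM in vehicle mice. The Apol11b ratio stayed higher in every combination library than in any other library. The share of all genes whose groups lie apart in these ways on this scale is not given, so neither separation can be set against it.

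With the log2 erythroid sum as a covariate, an alternative chosen after seeing the data, the change in the combination against vehicle was 1.02 for Apol8 (edgeR adjusted p = 0.261) and 4.22 for Apol11b (edgeR adjusted p = 0.174), and 1 of all genes was called. Against PD-901 mice Apol11b was still higher by 2.13 (edgeR adjusted p = 0.0486). The erythroid sum itself differs between the groups, so this covariate takes up part of the treatment difference along with it, and the part of red cell precursors in the change of either gene was not tested.

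**Figure D5:**
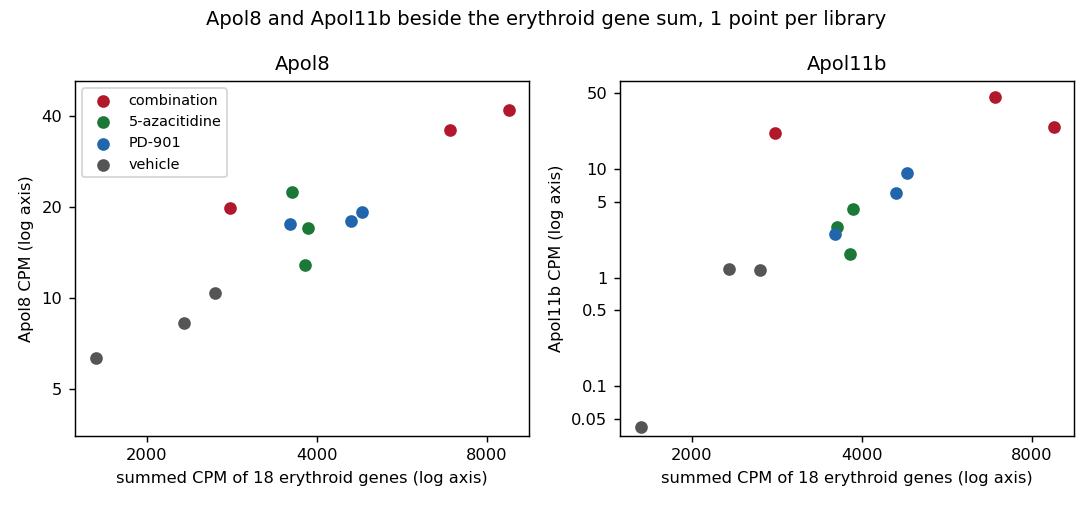
Apol8 and Apol11b in CPM against the summed CPM of 18 erythroid genes, 1 point per library, all axes log. The combination mouse with an erythroid sum of 2808 has 19.7 CPM of Apol8, above all PD-901 mice and 2 of the 3 5-azacitidine mice. Its 21.5 CPM of Apol11b is above all mice of both single-agent groups, each of which has a larger sum. Among the combination mice it has the lowest sum and the lowest level of both genes. The part of red cell precursors was not tested.

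In the lists of interferon, dendritic cell, plasma lipoprotein and germline genes, no gene was called higher in the combination against vehicle. The lists were chosen with earlier results of these libraries known. Of 29 genes of the type I interferon response, the pathway that induces Apol9a and Apol9b, 0 rose and 21 fell in the combination against vehicle, with a median log2 change of -1.25. Oas3, a sensor of double-stranded RNA, changed by -1.51 and Ifit3b, an antiviral gene, by -3.24. Irf7, the transcription factor that amplifies interferon production, changed by -1.98. Of 18 tested genes of the interferon gamma response 0 passed in either direction, with a median of -0.31. The lowest p in that list was that of Irf1, at -0.73 ± 0.24 (edgeR adjusted p = 0.0601).

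Of 12 dendritic cell markers 7 fell, and the median log2 change was -1.50. Itgax, which encodes the integrin chain CD11c, changed by -2.18 and Cd209a, a lectin receptor gene, by -4.21. The summed CPM of these markers was 93.7 to 121 in combination mice and 238 to 488 in vehicle mice. Of 12 tested genes of plasma lipoproteins and lipid transfer 4 fell and 0 rose. Apoe, the ligand that clears lipoprotein remnants, changed by -2.66, the phospholipid transfer gene Pltp by -3.49, the cholesterol exporter gene Abcg1 by -1.43 and Apobr, a lipoprotein receptor gene, by -1.18. These 4 genes were thus lower in the mice in which Apol8 and Apol11b were higher. Of 3 tested germline genes that DNA methylation keeps silent 0 passed, and Hormad1 and Ddx4, both of that list, had log2 differences of 2.17 ± 1.47 and 0.75 ± 0.57, and Tdrkh, the third, one of -0.29 ± 0.49.

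The genes whose pattern over the 12 libraries was most like that of Apol8 (Pearson r of log2 CPM, given as a description over libraries that share treatment groups) were Orc1, a subunit of the origin recognition complex, at 0.973, Pabpc4, a poly(A)-binding protein gene, at 0.971, Ints7 at 0.955, Zfp410 at 0.955 and Tfr2, the transferrin receptor 2 gene, at 0.954. All 5 remained when the constant added before taking logs was lowered. For Apol11b they were Prg4, the lubricin gene, at 0.953, Igkv14-126 at 0.942, Zfp410 at 0.925, Apol8 itself at 0.905 and Pfkm at 0.900, of which 3 remained. Apol11a and Apol11b reached an r of 0.773, and Apol7c and Apol11b one of 0.05. For Apol7c the top genes were Ldah at 0.894, Rnft2 at 0.849, Eda2r at 0.832, Zfp97 at 0.830 and Gstcd at 0.829, of which 1 remained, and counts as low as those of Apol7c carry little pattern.

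The sequence copies bear unequally on the 2 genes that changed. None of the 50-base windows of Apol8 transcripts, 0%, occurred in another gene, so its counts are not exposed to copies of this kind. For Apol11b 15.2% of the windows occurred elsewhere, for Apol9a 16.5%, for Apol7c 25.6%, for Apol7a 15.5%, for Apol10b 6.11% and for Apol6 1.73%. The counts of Apol11b exceeded those of Apol11a in every combination library, by 909 to 115, 422 to 43 and 615 to 10.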

How the data were processed

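The authors' deposited table holds raw, unscaled counts per gene for the 12 mice. Tools listed in the submitters' processing notes are STAR 2.7.2a, Subread 1.6.5, featureCounts and bcl2fastq, and the build is mm10. The annotation release and the strand and multi-mapping settings are not stated. The labels call the mice of a group independent, and replicate numbers only name them. Libraries of 1 group differed by more than sampling noise, with a chi-square of 19.9 to 71.2 per degree of freedom.

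The analysis used edgeR 4.0.16 in R 4.3.3: filterByExpr (minimum count 10, minimum total 15), TMM scaling, and quasi-likelihood F tests in 1 fit of 4 group means with 8 residual degrees of freedom. Tests were two-sided, adjusted by Benjamini and Hochberg over 17475 genes, and called at 0.05. Each SE is the one implied by F. Total counts ran from 15356919 to 27148190, and the common biological coefficient of variation was 0.328. The 95% intervals of log2 changes come from that fit and include the spread between mice, while the limits for counts of 0 cover counting error only. Patterns were compared on log2 CPM with a prior count of 2. Exon lengths came from the deposited table, upstream sequences from RefSeq, and transcript windows from GENCODE M21.

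The members and lists were chosen with earlier results of these data known. Named genes are the 8 members, other Apol genes and their tested neighbours, up to 4 genes of a list with the lowest p, and the 5 genes most like a tested member. Alternatives were DESeq2 size factors, no scaling, a stricter filter or none, limma-voom (limma 3.58.1), DESeq2 1.42.0, fits of only the groups compared, leaving out each mouse, leaving out the 4 libraries lowest in Lyz2, Apol9a and Apol9b summed, and an erythroid covariate added after seeing the data.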

Additional observations from a re-analysis of the deposited data

How the results depend on the processing

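Over the alternatives, Apol8 and Apol11b kept their direction in the combination against vehicle, with log2 changes of 1.02 to 2.72 and 4.22 to 8.98, and both passed the threshold in 21 of 22 settings. The exception was the erythroid covariate, added after seeing the data, with which 0 members were called there, 0 in the combination against 5-azacitidine and 1 in the joint test. Without the low-count filter 1 member, Apol8, passed in PD-901 against vehicle (adjusted p = 0.0018) and 1, again Apol8, in 5-azacitidine against vehicle (adjusted p = 0.00096). Over all genes that fit called 53 and 572 in these comparisons, in either direction, against 0 and 1 in the main fit. Without that filter Apol8 also replaced Apol11b as the member called in the combination against PD-901 and against 5-azacitidine, where 1756 and 986 of all genes were called. DESeq2 called 1 member in 5-azacitidine against vehicle, 2 in the combination against PD-901 and 2 in the combination against 5-azacitidine. Over all genes it called 613, 2215 and 1048 in these comparisons, against 1, 1191 and 231 in the main fit. Without the 4 libraries lowest in Lyz2, which leaves 1 combination and 1 vehicle library assumed to vary like the other groups, 1 member was called in PD-901 against vehicle and 2 in the combination against 5-azacitidine, and in the combination against PD-901 Apol11b was lost (adjusted p = 0.0652) and Apol8 called (adjusted p = 0.0318). Leaving out 1 mouse at a time gave 0 to 2 members in the combination against PD-901, in the combination against 5-azacitidine and in the joint test. Over all genes these fits called 386 to 1563 in the combination against PD-901 and 0 to 735 in the combination against 5-azacitidine. The cause of these shifts was not tested.

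Signs turned only where the value was not called. Apol7c changed by -0.62 without the first combination mouse and by -1.45 without the Lyz2-low libraries in the combination against vehicle, and by -0.62 without the first 5-azacitidine mouse in 5-azacitidine against vehicle. In the combination against 5-azacitidine it changed by 0.56 with limma-voom and by 1.38 without the first 5-azacitidine mouse. Over all mice left out in turn, the Apol7c changes ran from -0.62 to 2.32, from -0.62 to 3.05 and from -2.11 to 1.38 in these 3 comparisons, and the Apol8 interaction from -0.45 to 0.027. The interaction turned to 0.027 for Apol8 without the second combination mouse, and to -0.22 with limma-voom and -3.93 without the Lyz2-low libraries for Apol11b. No paired analysis was possible because the labels give no replicate numbers shared between groups. Depth limits the 6 low members: at 0 counts a library still allows 0.109 to 0.198 CPM.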
